A study of Mus musculus with 30 samples.

Results

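The vasopressin and oxytocin system was followed here through 4 genes, found by their Ensembl identifiers among the 55401 gene identifiers of the count tables: Avp (ENSMUSG00000037727), Oxt (ENSMUSG00000027301), Avpr1a (ENSMUSG00000020123) and Oxtr (ENSMUSG00000049112). RNA sequencing was done on hypothalamus of wild-type B6 mice in 9 groups, 30 libraries in all, held in 3 count tables. The fasting table holds fed mice, mice fasted for 24 h, mice fasted for 72 h, and mice fasted for 72 h with cold treatment at 18 °C, with 3 libraries each. The refeeding table holds mice given food again after a 72 h fast for 1 h (3 libraries), 12 h (3) or 1 week (4). The 1-month table holds 4 fed controls and 4 mice refed for 1 month after a 72 h fast. Age, sex and the housing temperature of the other groups are not given in the labels, and whether each library is a separate mouse is not said, so the spread between libraries may be partly technical. Levels are compared only within a table.

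Vasopressin and oxytocin are peptide hormones of 9 amino acids made mainly by large neurons of the paraventricular and supraoptic nuclei, which send axons to the posterior pituitary and release the peptides into the blood; vasopressin is also made by neurons of the suprachiasmatic nucleus, the circadian clock. Vasopressin is known for water retention and blood pressure, and oxytocin for birth, milk ejection, social behaviour and reduced food intake. Avpr1a and Oxtr encode G protein-coupled receptors for vasopressin and oxytocin that couple to Gq and raise calcium through phospholipase C.

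Avp and Oxt are neighbours on chromosome 2. In GENCODE M21 on GRCm38, Oxt spans chr2:130576173-130577054 on the plus strand and Avp spans chr2:130580620-130582554 on the minus strand, with 3565 bases between them and no other gene overlapping either. The genes are paralogs, and their sequence is shown because it bears on how reads can be told apart. The coding bases of the hormones differ at 5 of 27 bases, in capitals, and 2 of 9 codons encode different amino acids.
Avp: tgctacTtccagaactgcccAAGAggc
Oxt: tgctacAtccagaactgcccCCTGggc
Exon 2, which encodes most of the neurophysin carrier, is 202 bases long in both genes, and 193 bases (95.5%) were identical. The longest identical stretch was 127 coding bases (coding bases 131 to 257 of Avp and 119 to 245 of Oxt).
Avp and Oxt: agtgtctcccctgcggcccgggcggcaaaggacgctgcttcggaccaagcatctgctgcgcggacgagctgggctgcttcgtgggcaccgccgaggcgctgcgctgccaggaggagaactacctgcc
Of all 50-base windows of the transcript, 14.8% (78 of 528) in Avp and 16.0% (78 of 488) in Oxt occurred unchanged in the other gene. At 100 bases the shares were 5.86% and 6.39%. Reads inside these windows cannot be assigned to one gene by sequence, and neither read length nor the handling of multiply mapped reads is stated in the labels.

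The 250 bases before the RefSeq start of each hormone gene (GRCm38.p6) are shown as a description, and their part in the levels was not tested. Capitals mark the E-box CACGTG, the site type of clock and other basic helix-loop-helix factors, in Avp (chr2:130582589-130582838, minus strand) and the nuclear receptor half-site GGTCA or its complement TGACC in Oxt (chr2:130575919-130576168, plus strand).
Avp: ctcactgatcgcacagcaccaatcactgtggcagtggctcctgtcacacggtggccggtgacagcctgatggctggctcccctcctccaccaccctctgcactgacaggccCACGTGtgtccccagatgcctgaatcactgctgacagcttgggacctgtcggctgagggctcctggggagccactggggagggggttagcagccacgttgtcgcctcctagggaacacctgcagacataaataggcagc
Oxt: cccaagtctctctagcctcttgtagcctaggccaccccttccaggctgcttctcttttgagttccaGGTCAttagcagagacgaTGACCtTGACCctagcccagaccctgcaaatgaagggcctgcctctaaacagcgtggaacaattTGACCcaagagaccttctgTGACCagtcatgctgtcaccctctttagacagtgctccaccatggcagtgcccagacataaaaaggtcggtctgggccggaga
The Avp window held 1 E-box, which begins 139 bases before the start, and no half-site. The Oxt window held 5 half-sites, which begin 184, 166, 160, 102 and 83 bases before the start, and no E-box. Among 32851 promoters of the same length, searched on both strands, 6.02% held an E-box, 35.2% held at least 1 half-site and 0.0426% held 5 or more. The cyclic AMP response element TGACGTCA, present in 1.55% of promoters, was in neither window. A match describes letters in the window and not binding.

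Library totals were 27111216 to 43397395 counts in the fasting table, 26115967 to 64269426 counts in the refeeding table, where the 1-week libraries were the deepest (46909406 to 64269426 counts), and 9347942 to 13813956 counts in the 1-month table. The 10 hypothalamic marker genes (such as Hcrt, Agrp, Pomc, Sim1 and Otp) were all detected in every group. Markers of neighbouring regions were present too, and the summed level of 10 striatal genes ranged from 280 to 1575 CPM (a library's counts scaled to a common total with TMM factors) over the 30 libraries. Fed replicate 2 also held skeletal muscle transcripts at a summed 1054 CPM and liver transcripts at 841 CPM, against at most 13.6 and 292 CPM in the other fed libraries. In such tissue samples, fewer cells of a type and less RNA per cell cannot be told apart.

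Both hormone genes were among the more abundant genes per transcript length, and the receptors were not. In the 1-month table the mean over 8 libraries was 415 CPM per kb of exon for Avp (rank 24 of 18834 genes above 0), 263 for Oxt (rank 50), 1.80 for Avpr1a (rank 11936) and 0.856 for Oxtr (rank 13493). In the refeeding table Oxt stood at 194 and Avp at 144 CPM per kb (ranks 72 and 127 of 31698), and in the fasting table Avp stood at 84.9 and Oxt at 69.8 CPM per kb (ranks 271 and 338 of 31485). Oxtr was at 1.14 and 1.69 CPM per kb in the fasting and refeeding tables.

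**Figure D1:**
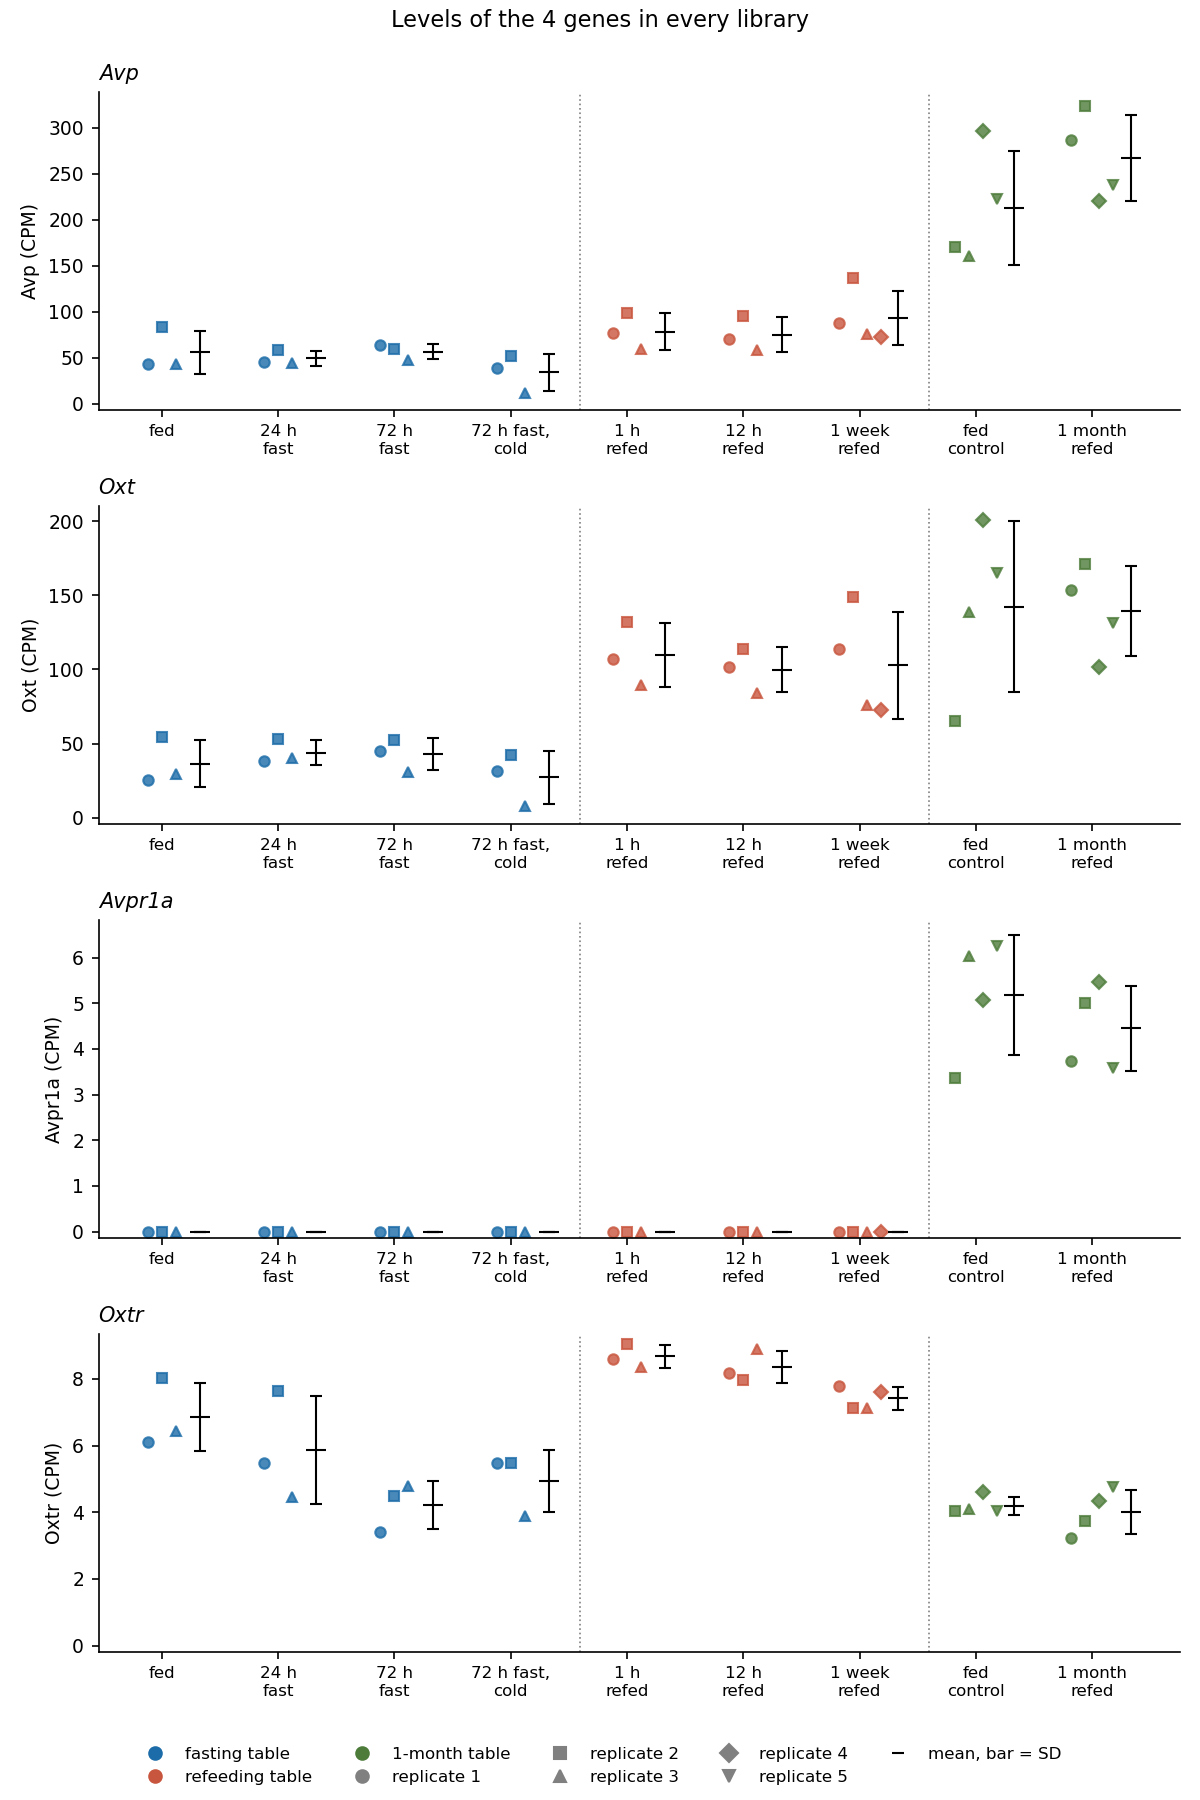
TMM-scaled CPM (vertical axis, starting at 0) of Avp, Oxt, Avpr1a and Oxtr in the 30 libraries of 9 groups; symbols give the replicate number, colours the table, black marks the mean and SD, and dotted lines separate tables whose levels are not compared. Replicate 3 of the cold group is low in Avp (12.0 CPM) and Oxt (7.66 CPM), Avpr1a is at 0 outside the 1-month table, and Oxtr is higher in all 3 fed libraries than in all 3 libraries of the 72 h fast.

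No change of Avp passed the test in any of the 9 comparisons. By edgeR no change of any member passed, and of the 28 member tests 2, both of Oxtr, had an unadjusted p under 0.05. In the fed mice Avp was at 42.4, 82.7 and 42.4 CPM in replicates 1 to 3, and after the 24 h fast at 44.9, 58.6 and 44.5 CPM. After the 72 h fast it was at 63.2, 59.3 and 47.1 CPM, and after the 72 h fast in the cold at 38.9, 51.5 and 12.0 CPM. All 4 groups overlapped, fed replicate 2 was the highest of the 12 libraries and replicate 3 of the cold group the lowest. The order of the means was 72 h fast (56.5 ± 8.41 CPM, SD, n = 3), fed (55.9 ± 23.2), 24 h fast (49.3 ± 8.05) and 72 h fast in the cold (34.1 ± 20.2), and no neighbours in it differed beyond their spread. From fed to the 24 h fast, where 0 of 3 tested members and 0.0343% of all 20408 genes passed, the log2 fold change of Avp was -0.18 with a 95% interval from -1.14 to 0.78. From fed to the 72 h fast, where 15.1% of all genes and 0 of 3 members passed, it was 0.02 (interval -0.94 to 0.97). Changes of Avp of any size within these intervals were not excluded by these libraries.

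Oxt did not pass the test in the fasting table either. It was at 25.3, 54.4 and 29.2 CPM in the fed libraries, at 37.9, 53.3 and 40.1 CPM after the 24 h fast, at 44.8, 52.2 and 31.1 CPM after the 72 h fast and at 31.4, 42.4 and 7.66 CPM after the 72 h fast in the cold. Again every group overlapped every other. The means were 43.7 ± 8.33 CPM (24 h fast), 42.7 ± 10.7 (72 h fast), 36.3 ± 15.8 (fed) and 27.2 ± 17.8 (72 h fast in the cold), with no neighbours separated. The log2 fold change was 0.27 (interval -0.86 to 1.39) from fed to the 24 h fast and 0.23 (interval -0.89 to 1.36) from fed to the 72 h fast. From the 24 h to the 72 h fast, where 0 of 3 members and 1.63% of all genes passed, it was -0.04 for Oxt and 0.20 for Avp.

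Cold during the 72 h fast gave the most negative values for both hormone genes, and without 1 library they were smaller in size. The log2 fold change from the 72 h fast to the 72 h fast in the cold was -0.73 ± 0.43 (SE) for Avp and -0.65 ± 0.51 for Oxt, with adjusted p = 0.900 and 0.937 by edgeR's quasi-likelihood test. In this comparison 0 of 20408 genes (0%) and 0 of 3 members passed, and 1296 genes had an unadjusted p under 0.05. Without replicate 3 of the cold group the values were -0.32 for Avp and -0.21 for Oxt. From fed to the 72 h fast in the cold, where 17.9% of all genes and 0 of 3 members passed, the log2 fold change was -0.71 for Avp and -0.42 for Oxt, and without that library -0.31 and 0.02.

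That library was low in several genes of hypothalamic neurons, while its lateral hypothalamic markers were not low. Trh, the thyrotropin-releasing hormone gene of paraventricular neurons, was at 8.74 CPM there and at 25.9 and 26.8 CPM in the other cold libraries. Vip, a peptide gene of suprachiasmatic neurons, was at 0.992 CPM against 2.69 and 4.60. Otp and Sim1, transcription factors needed to form paraventricular neurons, were at 12.1 and 12.8 CPM. The other cold libraries were at 19.5 and 24.0 CPM for Otp and 17.3 and 22.8 CPM for Sim1. The summed level of 6 thalamic markers was 1330 CPM in it, the highest of the fasting table. Its 10 hypothalamic markers, Hcrt among them, summed to 149 CPM, inside the range of the other fasting libraries. That sum did not stand for every hypothalamic region. The lateral hypothalamic markers summed to 130 CPM in this library, against 86.8 and 80.99 CPM in the other cold libraries. Its suprachiasmatic markers summed to 40.7 CPM and its ventromedial and arcuate markers to 29.99 CPM, each the lowest of the fasting table. Relative to the counts of Sim1 plus Otp in the same library, Avp was at 0.481 and Oxt at 0.308 counts per count there, against 1.06 and 1.10 for Avp and 0.853 and 0.906 for Oxt in the other cold libraries, so both were also low on this scale. The part of tissue content in these values was not tested.

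**Figure D2:**
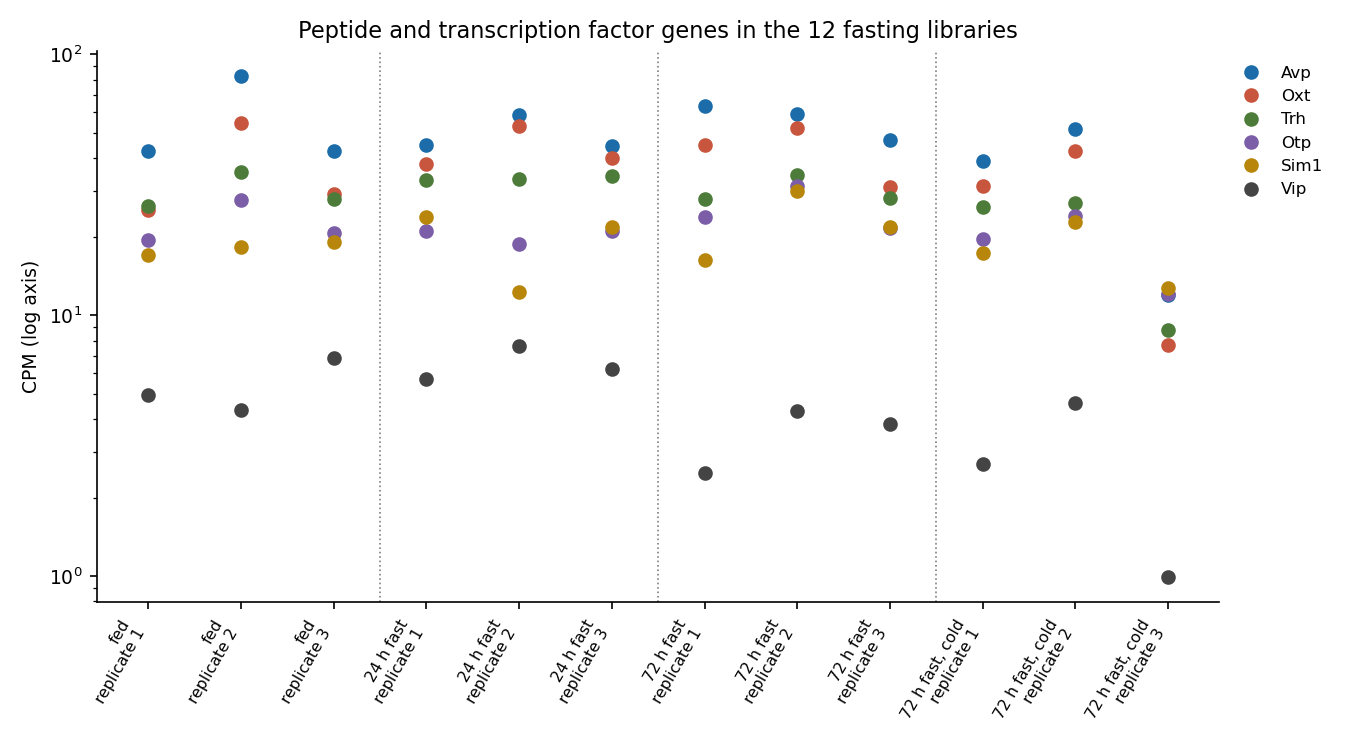
CPM on a log axis of Avp, Oxt, Trh, Otp, Sim1 and Vip in each of the 12 libraries of the fasting table, 1 point a gene and library. In replicate 3 of the cold group Avp (12.0 CPM), Oxt (7.66), Trh (8.74), Otp (12.1) and Vip (0.992) are each at the lowest value of the 12 libraries.

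During refeeding, neither hormone gene passed the test. Avp was at 76.9, 98.8 and 59.1 CPM after 1 h, at 70.4, 95.6 and 58.7 CPM after 12 h and at 88.0, 136, 75.8 and 71.8 CPM after 1 week. Oxt was at 107, 132 and 89.6 CPM after 1 h, at 102, 114 and 84.0 CPM after 12 h and at 114, 149, 75.9 and 72.3 CPM after 1 week. For both genes all 3 groups overlapped, and replicate 2 was the highest library of each. From 1 h to 12 h, where 14.2% of all 19932 genes and 0 of 3 members passed, the log2 fold change was -0.06 for Avp and -0.14 for Oxt. From 12 h to 1 week, where 11.6% of genes and 0 of 3 members passed, it was 0.31 (interval -0.38 to 1.00) for Avp and 0.04 for Oxt. From 1 h to 1 week, where 26.9% of genes and 0 of 3 members passed, it was 0.25 (interval -0.44 to 0.94) for Avp and -0.10 (interval -0.75 to 0.56) for Oxt. The values at 1 week depended on the model, and the shares of all genes called under the alternatives are not given here. With the titles' replicate numbers as a block, Avp was called in the comparisons of 1 week with 12 h (log2 fold change 0.40, adjusted p = 0.00413) and with 1 h (0.34, adjusted p = 0.00471), although the numbers did not pair the libraries genome-wide. The library names number 3 of the 4 1-week libraries differently (titles 2, 3 and 4 are libraries 4, 2 and 3), and with those numbers as a block Avp was not called (0.10, adjusted p = 0.701, and 0.04, adjusted p = 0.861). With 1 surrogate variable the direction of Avp turned, to -0.22 from 12 h (adjusted p = 0.638) and -0.07 from 1 h (adjusted p = 0.805), and Oxt was called lower from 1 h to 1 week (-0.45, adjusted p = 0.0131). Without 1-week replicate 2, the highest Avp library of the table, the Avp values were 0.08 and 0.00445.

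At 1 month, Avp was at 170, 161, 296 and 222 CPM in fed control replicates 2 to 5 and at 287, 323, 220 and 238 CPM in the refed replicates 1, 2, 4 and 5. The groups overlapped, and the log2 fold change was 0.33 ± 0.22 (interval -0.19 to 0.85, adjusted p = 0.385 by edgeR). Of 15 alternatives, whose shares of all genes called are not given here, 1 passed, leaving out control replicate 4 (0.53, adjusted p = 0.0434). Leaving out each of the other 7 libraries gave values down to 0.22 and adjusted p up to 0.639, and with 1 surrogate variable the direction turned (-0.04, adjusted p = 0.987). Oxt was at 65.2, 139, 201 and 165 CPM in the controls and at 154, 171, 101 and 132 CPM after refeeding, overlapping throughout, with a log2 fold change of -0.03 (interval -0.89 to 0.83). Of the 4 members 0 passed, beside 10.1% of all 14867 genes. Vip was at 1.06 and 1.34 CPM in control replicates 2 and 4, at 9.67 and 11.6 CPM in replicates 3 and 5, and at 11 to 15.5 CPM in the refed libraries, so the controls were not alike in this suprachiasmatic gene. Its part in the Avp values was not tested.

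**Figure D3:**
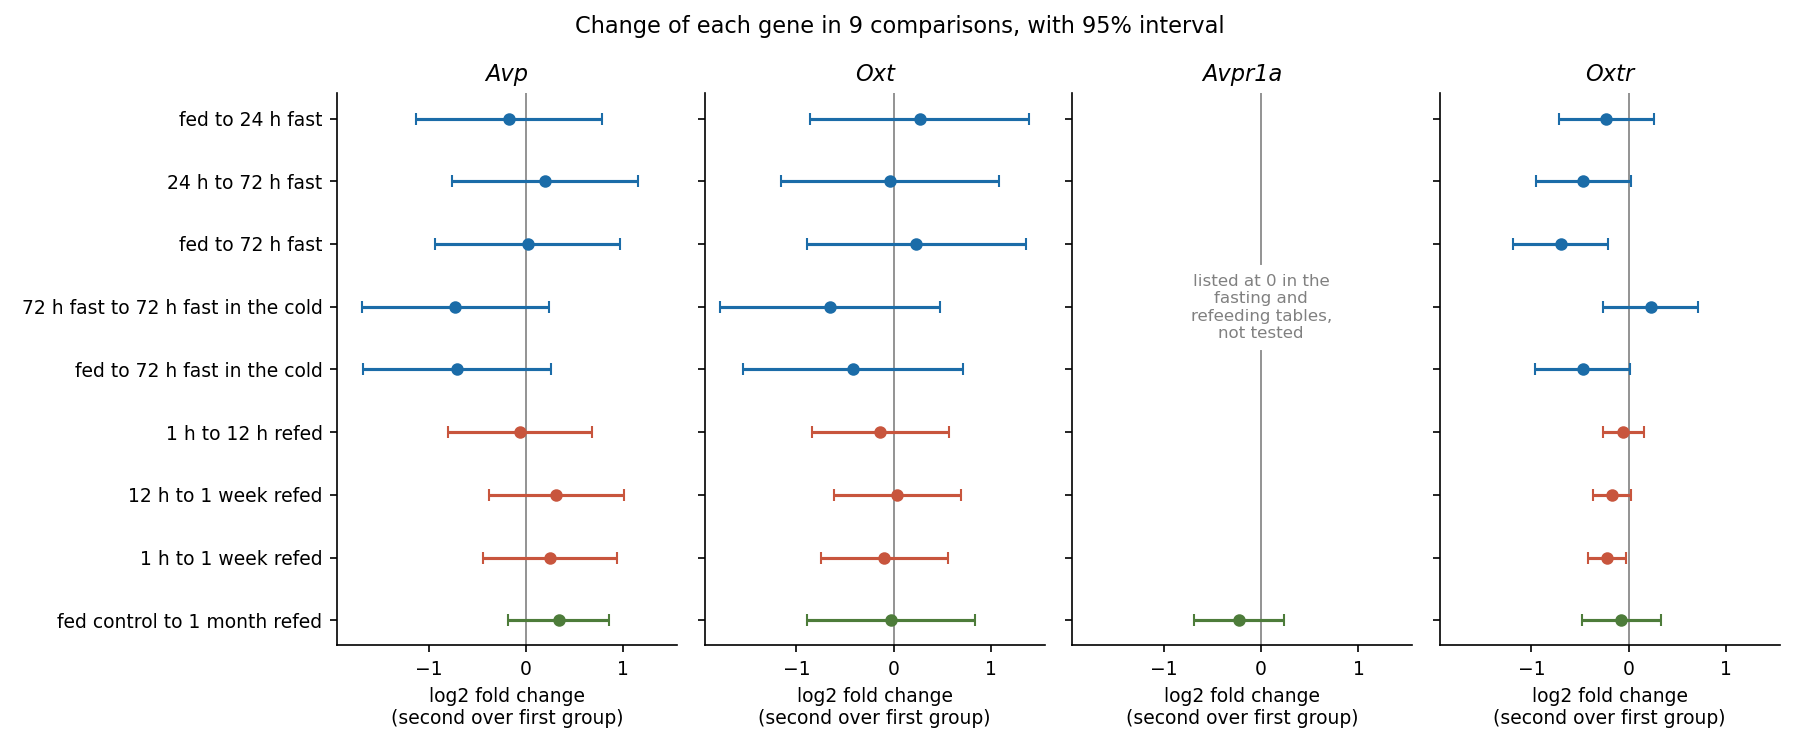
Log2 fold change (horizontal axis, second over first group named at the left) of each member in the 9 comparisons with its 95% interval, coloured by table. All intervals of Avp and Oxt include 0; the interval of Oxtr lies below 0 from fed to the 72 h fast (-1.18 to -0.21) and from 1 h to 1 week of refeeding (-0.42 to -0.03), neither of which passed after adjustment.

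Avp and Oxt went up and down together from library to library. In the fasting table Pearson's r of log2(CPM + 0.5) was 0.962 over 12 libraries (permutation p = 4e-05, Benjamini-Hochberg adjusted 0.00012) and Spearman's rho was 0.888 (permutation p = 0.00029). Without the cold replicate 3 and fed replicate 2, the libraries farthest from the median of Avp, r was 0.830. In the refeeding table r was 0.811 over 10 libraries (permutation p = 0.00394, adjusted 0.00591) and rho 0.818 (p = 0.00577), and r was 0.680 without the 2 farthest libraries. In the 1-month table r was 0.671 over 8 libraries (exact permutation p = 0.0631) and rho 0.738 (exact permutation p = 0.0458), and r was 0.879 without the 2 farthest libraries. The permutations exchanged libraries across the groups of a table, so their p-values also take in differences between groups. Around the group means, r was 0.987, 0.927 and 0.753 in the 3 tables. The shared stretch of exon 2 and the shared library are common to both values.

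The ratio of Avp to Oxt within a library does not depend on library scaling. In the fed libraries Avp counts were 1.45 to 1.67 times the Oxt counts, and after the 24 h fast 1.10 to 1.18 times, without overlap. The difference in mean log2 ratio was -0.45, with an exact two-sided permutation p of 0.10, the smallest that 3 against 3 libraries can give, and 0.30 after Benjamini-Hochberg adjustment over the 9 comparisons. After the 72 h fast the ratio was 1.13 to 1.52 and in the cold 1.22 to 1.56, both overlapping the fed range. In the refeeding table Oxt counts exceeded Avp counts in all 10 libraries, and the ratio was 0.660 to 0.746 after 1 h, 0.693 to 0.838 after 12 h and 0.774 to 0.998 after 1 week. The libraries of 1 h and 1 week did not overlap, and the mean log2 ratio differed by 0.37 (exact permutation p = 0.0571, adjusted 0.30). In the 1-month table the ratio was 1.16 to 2.61 in the controls and 1.80 to 2.17 after refeeding (difference 0.30, exact permutation p = 0.286). None of the 9 ratio tests passed after adjustment.

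**Figure D4:**
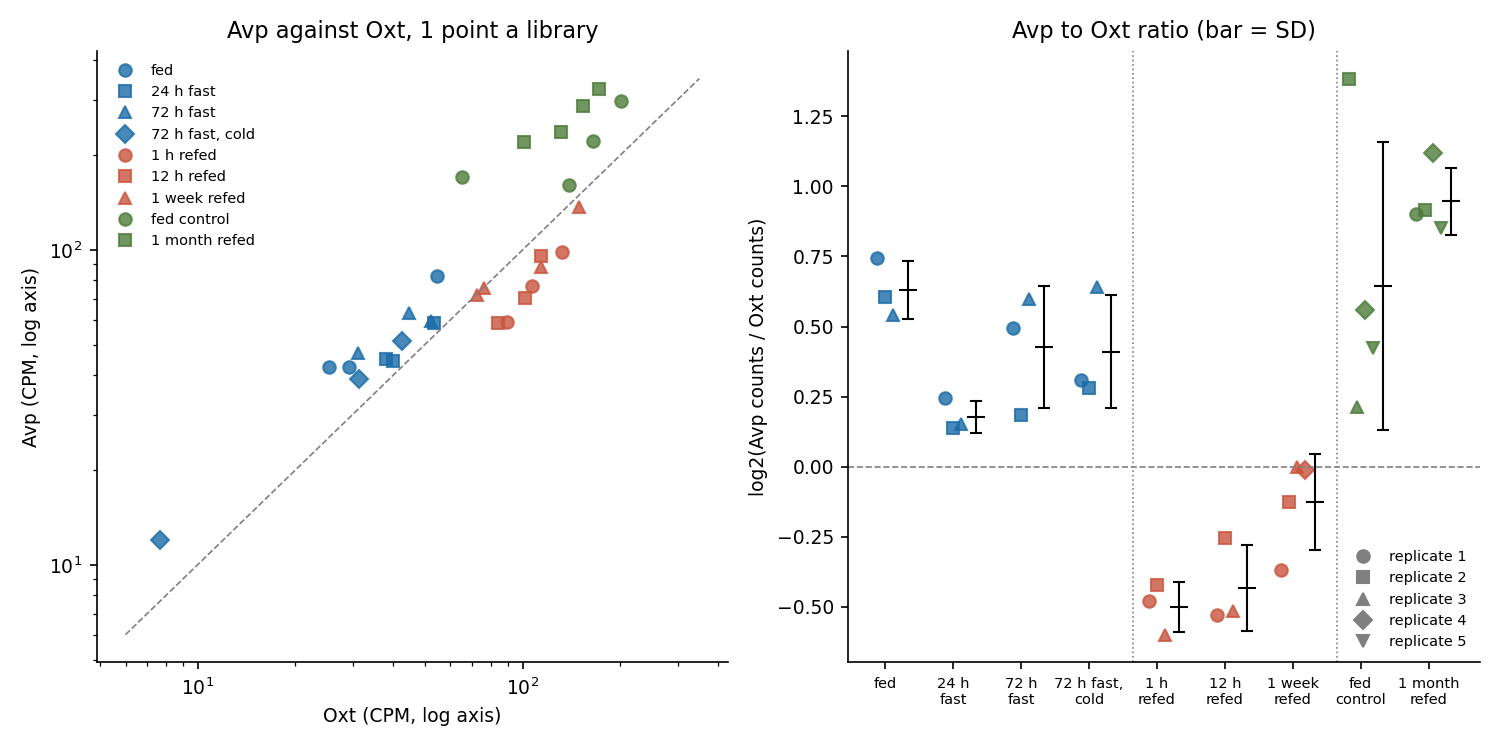
Left, Avp against Oxt in CPM on log axes for each of the 30 libraries, with the dashed line of equal levels; right, log2 of Avp over Oxt counts per library, with mean and SD in black. The fasting and 1-month libraries lie above equality and the 10 refeeding libraries below it, with ratios of 0.660 to 0.998. The tables were counted separately, so ratios are not compared between them.

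Oxtr gave the comparison closest to the threshold. The gene spans chr6:112473683-112489943 on the minus strand, and no other gene overlaps it. It was at 6.11, 8.03 and 6.43 CPM in the fed libraries and at 3.41, 4.50 and 4.77 CPM after the 72 h fast, so the groups did not overlap. The 24 h fast lay between and overlapped both, at 5.48, 7.64 and 4.47 CPM, and the cold libraries were at 5.47, 5.48 and 3.88 CPM, below the fed libraries, as 38.0% of all genes also did not overlap between fed and the cold. The means were 6.86 ± 1.03 CPM (fed), 5.86 ± 1.62 (24 h fast), 4.94 ± 0.924 (72 h fast in the cold) and 4.23 ± 0.720 (72 h fast), and neighbours in this order overlapped. From fed to the 72 h fast the log2 fold change was -0.70 ± 0.23 (0.617-fold, 95% interval 0.440 to 0.865), with an adjusted p of 0.0535 by edgeR's quasi-likelihood test, which did not pass at 0.05. In that comparison 41.1% of all genes did not overlap and 16.2% had an unadjusted p as small or smaller. Of 14 alternatives, whose shares of all genes called are not given here, 5 passed. They were the 2 groups fitted alone (adjusted p = 0.0329), the replicate block (0.0470), limma voom with quality weights (0.0140), DESeq2 (0.0201) and leaving out fed replicate 3 (0.0489). The other 9 did not, among them RLE factors (0.0529), no filter (0.0542), leaving out fed replicate 1 (0.0983) and leaving out any library of the 72 h fast (0.0986 to 0.143). With 1 surrogate variable in the model the log2 fold change was -0.30 (adjusted p = 0.752), and without fed replicate 2, which held muscle and liver transcripts, it was -0.57 (adjusted p = 0.182).

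Between fed and the 72 h fast, other values of the fasting table were lower too. The summed level of 10 striatal markers was 645 to 1139 CPM in the fed libraries and 423 to 498 CPM after the 72 h fast, and that of 6 cortical and hippocampal markers 104 to 148 CPM and 19.6 to 58.1 CPM; Oxtr is also expressed in forebrain regions outside the hypothalamus. After the 24 h fast the striatal sum was 1012 to 1163 CPM and the cortical and hippocampal sum 44.9 to 182 CPM, each overlapping the fed range. Of the markers tested, 5 of 5 of choroid plexus, 4 of 4 of blood, 5 of 6 of liver and 3 of 3 of skeletal muscle were also called lower after the 72 h fast. The part of these tissues in the Oxtr values was not tested. The remaining Oxtr changes in this table were -0.23 (fed to 24 h), -0.47 (24 h to 72 h, interval -0.96 to 0.02), 0.22 (72 h to 72 h in the cold) and -0.47 (fed to 72 h in the cold, interval -0.96 to 0.01), and none passed.

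In the refeeding table Oxtr varied little. It was at 8.60, 9.06 and 8.37 CPM after 1 h, at 8.18, 7.97 and 8.88 CPM after 12 h, and at 7.79, 7.13, 7.14 and 7.61 CPM after 1 week. The 1-week libraries lay below all libraries of both earlier times, and those of 1 h and 12 h overlapped. From 1 h to 1 week the log2 fold change was -0.22 ± 0.09 (0.856-fold), with an adjusted p of 0.0791 by edgeR, beside 36.9% of all genes without overlap. From 12 h to 1 week it was -0.17 (adjusted p = 0.239), beside 24.0% of all genes without overlap, and from 1 h to 12 h -0.05. The summed level of 6 cortical and hippocampal markers was 99.7 to 121 CPM after 1 h, 24.0 to 100 CPM after 12 h and 20.4 to 31.0 CPM after 1 week. That of 5 blood markers was 68.4 to 123 CPM, 76.4 to 120 CPM and 401 to 1257 CPM, with Alas2 at 0, and the part of either was not tested. At 1 month Oxtr was at 4.03, 4.10, 4.60 and 4.03 CPM in the controls and at 3.24, 3.73, 4.33 and 4.75 CPM after refeeding, from 42 to 53 counts a library, with a log2 fold change of -0.08 (interval -0.48 to 0.33).

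Avpr1a could be read only in the 1-month table. There it had 34 to 78 counts a library, at 3.36, 6.04, 5.08 and 6.26 CPM in the controls and at 3.74, 5.02, 5.46 and 3.59 CPM after refeeding. The groups overlapped, and the log2 fold change was -0.23 ± 0.22 (interval -0.69 to 0.23, adjusted p = 0.541 by edgeR). In all 12 fasting and 10 refeeding libraries Avpr1a is listed at 0. The gene (chr10:122448499-122453452, plus strand) lies wholly inside the annotated antisense gene Gm48877 (chr10:122405113-122546498, minus strand). Of 531 protein-coding genes inside a gene of the opposite strand that reach a total of 20 counts or more at 1 month, 504 (94.9%) are at 0 in the fasting table and as many in the refeeding table, against 4 and 2 of 7428 genes with no overlap. A listed 0 therefore gives no level of Avpr1a in those tables. Avpr2, the kidney receptor of water retention, lies wholly inside the spans of Arhgap4 and L1cam, is likewise at 0 there and was at 0.215 to 1.05 CPM at 1 month. Avpr1b, the pituitary receptor, has no overlapping gene and was at most 0.0897 CPM in any library.

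Genes that act on these peptides were given from fixed lists, beside a median log2 fold change over all genes between -0.03 and 0.01 in every comparison. Their counts stand beside the shares of all genes called, which were 0.0343% (fed to 24 h), 1.63% (24 h to 72 h), 15.1% (fed to 72 h), 0% (cold added) and 17.9% (fed to the cold) in the fasting table, 14.2% (1 h to 12 h), 11.6% (12 h to 1 week) and 26.9% (1 h to 1 week) on refeeding and 10.1% at 1 month. Of 5 genes for other receptors and turnover, 3 could be tested. Lnpep, the oxytocinase that cleaves both peptides, fell between fed (315 ± 24.7 CPM) and the 72 h fast (248 ± 17.7 CPM), by a log2 value of -0.35 (adjusted p = 0.0358). Cd38, needed for oxytocin release, rose from 13.7 ± 1.46 CPM at 1 h to 18.0 ± 3.00 CPM at 1 week of refeeding (0.39, adjusted p = 0.0251). Trpm2, a calcium channel linked to that release, was lower after 1 month (-0.34, adjusted p = 0.0185), and no gene of the list passed in the other 6 comparisons.

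The list of prohormone processing held 7 genes, among them the enzymes that cut and amidate the precursors. Pcsk1 fell between fed and the 72 h fast (76.8 ± 4.42 and 51.8 ± 7.56 CPM, log2 difference -0.57, adjusted p = 0.0131). It was the only one of the 7 to pass there. In the cold Pcsk1 fell (-0.41) and Pcsk2 rose (0.41) against fed. During refeeding 1 gene fell from 1 h to 12 h (Cpe, -0.30), 1 rose and 1 fell from 12 h to 1 week (Pam, 0.27; Pcsk1n, -0.34), and 1 rose and 2 fell from 1 h to 1 week. Pcsk1 was lower after 1 month (-0.31, adjusted p = 0.0352), alone of the 7. None passed in the remaining 3 comparisons.

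Of 7 transcription factors of the lineage, none passed in any of the 5 fasting comparisons or from 1 h to 12 h of refeeding. Otp had means of 18.6 to 25.6 CPM and Sim1 of 17.6 to 22.7 CPM over the 4 fasting groups, and Arnt2, the partner of Sim1, of 270 to 302 CPM. Pou3f2, required for these neurons to mature, fell between 12 h and 1 week of refeeding (37.0 ± 7.0 and 29.0 ± 0.396 CPM, log2 difference -0.35, adjusted p = 0.0275) and was lower after 1 month (-0.44, adjusted p = 0.0192). In the first of these comparisons 3 of 6 cortical and hippocampal markers were called lower, and 3 of 4 astrocyte, 3 of 4 oligodendrocyte and 4 of 4 tested blood markers higher; their part in the list genes at 1 week was not tested. Sim2 rose from 1 h to 1 week of refeeding (0.68, adjusted p = 0.0345), at 1.75 and 2.81 CPM.

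Of 12 peptides and enzymes found in paraventricular and supraoptic neurons, 0 rose and 2 fell between fed and the 72 h fast, with a median of -0.41 over the 12. Pdyn, the dynorphin precursor that vasopressin neurons release, fell (means of 29.5 ± 10.4 and 14.9 ± 2.89 CPM, log2 difference -0.99, adjusted p = 0.0351), and Nos1, the neuronal nitric oxide synthase, from 121 ± 7.04 to 86.7 ± 14.4 CPM (-0.48, adjusted p = 0.0427). The same genes, Pdyn (-1.05) and Nos1 (-0.53), fell in the cold against fed. Both are also expressed in striatum, whose markers summed to 423 to 498 CPM after the 72 h fast and 493 to 719 CPM in the cold, against 645 to 1139 CPM in fed mice, and that part was not tested. No gene of the list passed from fed to 24 h, from 24 h to 72 h or with cold added.

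The same list moved in both directions on refeeding. Between 1 h and 12 h, 3 of 12 rose and 1 fell. Apln, the precursor of apelin, a peptide of vasopressin neurons, rose (means of 9.32 ± 0.990 and 18.8 ± 1.69 CPM, log2 difference 1.01, adjusted p = 5.49e-05), Cartpt from 20.1 ± 0.368 to 30.8 ± 0.653 CPM (0.62) and Nos1 by 0.31. Between 1 h and 1 week, where 26.9% of all genes were called, 4 rose and 4 fell, with Apln at 20.8 ± 1.41 CPM (1.16, adjusted p = 3.67e-06), Vgf lower by a log2 fold change of -0.48 and Crh, the corticotropin-releasing hormone gene, lower by -0.59 (adjusted p = 0.00533). None passed from 12 h to 1 week. After 1 month Gal, galanin, fell from 39.4 ± 3.28 to 28.9 ± 1.11 CPM (-0.45, adjusted p = 0.00416), the only one of the 12 to pass, and Trh, at 62.1 ± 20 and 67.6 ± 11.3 CPM, did not. The summed level of 3 lateral hypothalamic markers was 308 to 372 CPM in those controls and 212 to 296 CPM after refeeding, without overlap (1 of 3 called lower), and 2 of 4 oligodendrocyte and 2 of 3 tested choroid plexus markers were called higher. Their part in the 1-month values was not tested.

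Of 9 genes of osmosensing and the magnocellular response, none passed in the 5 fasting comparisons. Rasd1, a small G protein induced by glucocorticoids and by osmotic stimulation of these neurons, fell from 12.1 ± 2.73 CPM at 1 h to 3.98 ± 0.405 CPM at 12 h of refeeding (log2 fold change -1.61, adjusted p = 4.59e-05) and was at 5.09 ± 0.334 CPM at 1 week. Between 1 h and 1 week 1 gene rose (Slc12a2, 0.23) and 2 fell (Rasd1, -1.25; Nfat5, -0.22), and from 12 h to 1 week Slc12a2 alone passed (0.27). After 1 month 1 of 8 tested passed (Rasd1, 0.56, adjusted p = 0.0496). Creb3l1, a transcription factor of Avp, had means of 4.08 to 5.08 CPM in the fasting groups and 6.78 and 9.47 CPM in the 1-month groups and did not pass.

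Of 14 genes of Gq receptor signalling, the route downstream of Avpr1a and Oxtr, 2 fell from the 24 h to the 72 h fast (1.63% of all genes called), and 1 rose and 4 fell from fed to the 72 h fast (15.1% called). Rgs2, which ends Gq signals, fell (means of 49.8 ± 6.26 and 26.5 ± 2.69 CPM, log2 difference -0.91, adjusted p = 0.0112), Prkcb by 0.56 and Itpr1, the calcium release channel, by 0.60 on the log2 scale. In the cold against fed, Grk3 (0.47) and Plcb4 (0.61) rose and Rgs2 fell (-0.72). The part of the striatal content given above in these values was not tested. Gna11 fell from 1 h to 12 h of refeeding (-0.30), alone of the 14. In the comparison of 1 h with 1 week 2 rose and 3 fell, among them Gna11 (-0.36), Grk3 (-0.27) and Grk2 (-0.19). After 1 month Plcb3 (0.38) and Rgs4 (0.28) rose and Plcb1 fell (-0.41). None passed from fed to 24 h, with cold added, or from 12 h to 1 week.

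The genes whose pattern was most like that of each member were sought among 13285 genes with a mean of at least 1 CPM in each table, by Pearson's r of log2(CPM + 0.5) centred on the table mean over 30 libraries. Cpne2 came first for both Oxt (r = 0.886) and Avp (r = 0.811), and Avp and Oxt correlated with each other at 0.887. For Oxt the next were Otp (0.754), Trh (0.748), Efs (0.732) and Agtr1a, an angiotensin receptor gene with 14.7% of its span overlapped by another gene (0.719). For Avp the next were Fezf1, a transcription factor of the ventromedial hypothalamus (0.760), Gpr165 (0.744), Arhgap36 (0.740) and Spint2 (0.731). For Oxtr they were Dnal1 (0.807), Ptrh2 (0.802), Sesn3 (0.800), Gldc (0.789) and Ets2 (0.782), and Oxtr itself correlated with Oxt at 0.273 and with Avp at 0.238. The libraries share depth and tissue content across genes, and of each set of 5 only 1 or 2 genes stayed among the top 5 by Spearman's rho or around group means. Avpr1a, at 0 in 2 tables, could not be ranked.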

How the data were processed

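The authors deposited gene counts in 3 tables; alignment with HISAT2 to mm10 and counting with featureCounts are named in the submitters' processing notes, without versions, and a directional rRNA-depletion kit per the labels' protocols. Strand and overlap settings are not given in the sources used here. Of the count columns, 2 match no labelled sample and were not used. Counts were fitted per table with edgeR 4.0.16 (quasi-likelihood, TMM, filterByExpr, all groups of a table together), with Benjamini-Hochberg adjustment over all genes tested and a threshold of 0.05; the scripts were tested on simulated data. The ratio of Avp to Oxt used counts plus 0.5 and exact permutation tests. Alternatives were no filter, RLE factors, DESeq2 1.42.0 and limma 3.58.1 voom with a quality weight for each library. Others were 1 surrogate variable (sva 3.50.0), a replicate block, groups fitted alone and leaving out libraries. Named were the members, at most 3 called genes per list and comparison, a fixed set of related genes, and the 5 genes most like each member. The members and lists were chosen with earlier results of these data known. The authors' deposited tables also give log2 fold changes and p-values from edgeR. Replicates were compared: every pair within a group differed beyond sampling noise (chi-square per degree of freedom 3.19 to 106).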

Additional observations from a re-analysis of the deposited data

Results flagged for a closer look

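In the 4 fed controls of the 1-month table, Oxtr in replicate 4 (4.60 CPM) stood apart from the other 3 libraries, which lay between 4.03 and 4.10 CPM; its gap to the nearest was 0.878 of the whole range, above Dixon's 95% critical value for 4 samples. It was 1 of 14 sets of values examined in this way, and chance marks about 1 in 20. The 48 Oxtr counts of that library lie within the 42 to 53 of the group.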

How the results depend on the processing

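The shares of all genes called are given here for the main fit only. No member was called in that fit, and the count was 1 in 9 pairs of a comparison and an alternative. From fed to the 72 h fast it was 1 (Oxtr) with the groups fitted alone, the replicate block, limma voom with quality weights or DESeq2. When 1 library was left out it was 0 to 1. It was 1 (Avp) from 12 h to 1 week and from 1 h to 1 week of refeeding with the replicate block, 1 (Oxt, log2 fold change -0.45, adjusted p = 0.0131) from 1 h to 1 week with 1 surrogate variable, and 0 to 1 at 1 month when 1 library was left out. Same-numbered libraries did not pair: in no comparison did all pairs correlate above 0.1 (lowest -0.326, highest 0.423), and in no comparison did every library correlate best with its own number. By the titles' numbers replicate 2 had the highest Oxt in 7 of 7 groups and the highest Avp in 6 of 7 of the fasting and refeeding tables, and by the numbers in the library names, which differ at 1 week, in 6 and 5 of 7. A replicate block with the library names' numbers, chosen after seeing the data, called no member on refeeding and gave Oxt -0.200 from 12 h to 1 week. The cause was not tested.

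Several values changed sign, among them some of the larger ones: without the surrogate variable Avp was 0.31 (12 h to 1 week), 0.25 (1 h to 1 week) and 0.33 (1 month), and Oxt -0.42 (fed to the cold). With 1 surrogate variable Avp was 0.0801 (fed to 24 h), 0.147 (1 h to 12 h), -0.216 (12 h to 1 week), -0.0689 (1 h to 1 week) and -0.0404 (1 month), and Oxt was 0.348 (24 h to 72 h), 0.252 (fed to the cold), 0.0815 (1 h to 12 h) and -0.533 (12 h to 1 week). With limma voom and quality weights Oxt was 0.0807 (24 h to 72 h). With the replicate block Oxt was 0.0106 (1 h to 1 week) and 0.000322 (1 month), and Oxtr 0.0115 (1 month). Leaving out 1 library gave Avp -0.35 to 0.22 (fed to 24 h), -0.15 to 0.41 (fed to 72 h) and -0.28 to 0.13 (1 h to 12 h). It gave Oxt -0.21 to 0.14 (24 h to 72 h), -0.897 to 0.0219 (fed to the cold), -0.276 to 0.00929 (1 h to 12 h), -0.19 to 0.18 (12 h to 1 week), -0.330 to 0.0598 (1 h to 1 week) and -0.27 to 0.17 (1 month), and Oxtr -0.162 to 0.0182 (1 month). The log2 ratio of Avp to Oxt ranged from -0.137 to 0.0712 with cold added and from -0.0220 to 0.115 from 1 h to 12 h, and kept its direction in the other 7 comparisons. Fitting without the cold replicate 3, chosen after seeing the data, called no member in the 3 comparisons without the cold group. Receptor counts of 34 to 78 a library at 1 month limit what could be detected there.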

Other observations

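The authors' deposited table of fed mice against 1 week of refeeding, which crosses the fasting and refeeding tables, gives Oxt a log2 fold change of -1.26 for fed over 1 week refed, with p = 2.91e-05 and an adjusted p of 0.486. Its columns hold 3 of the 4 1-week libraries (replicates 1, 3 and 4). The same deposited table gives -0.49 for Avp and -0.13 for Oxtr. Oxt was at 25.3 to 54.4 CPM in the fed libraries and at 114, 75.9 and 72.3 CPM in those 3 libraries (149 CPM in replicate 2), but it was also at 89.6 to 132 CPM after only 1 h of refeeding, so the table and the refeeding cannot be told apart. In the other 6 of the authors' deposited tables every listed member has an adjusted p of 1. The authors' adjustment may differ from the Benjamini-Hochberg one used here, so their adjusted p are not set against those given above.

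By Spearman's rho over the 30 table-centred libraries, the 5 genes most like Oxtr were Ets2 (rho = 0.803), Fosl2, Gem, Egr1 and Egr4, among them genes known as immediate early genes of neuronal activity. This is a description over libraries that share tissue content, and only Ets2 was also among the 5 by Pearson's r.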
